A study of Mus musculus with 27 samples.

Results

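The comparison described here set ipsilateral against contralateral cortex of mice 6 h after the blood supply to one side of the brain had been restored. Its members were the 3 ipsilateral and the 3 contralateral libraries that the labels give for that time, 6 of the 27 libraries in the study, and all genes were examined. The mice were wild-type C57BL6 animals of 7 to 8 weeks. In the operated animals the right middle cerebral artery was closed by a filament for 35 min, the common carotid artery on that side was also ligated, and the filament was then withdrawn. Ipsilateral cortex is the side of the closed artery, and contralateral cortex is the opposite side of operated brains. The 3 sham libraries came from mice whose arteries were exposed with no filament put in. Ipsilateral and contralateral cortex at 3, 12 and 24 h made up the remaining 18 libraries, and all 9 groups had 3 libraries each. The same replicate number in every group marks one surgery day, so the libraries of a group came from different surgery days. The main fit had no term for the day, so its p-values rest on the spread among libraries within groups. Surgery day is part of that spread, and fits with a surgery-day block, given below, separate what a day shared across groups. Animal and dissection cannot be told apart in that spread. The labels do not say whether the sides came from the same animal, which side and time the sham cortex came from, or whether animals were pooled.

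Closing the middle cerebral artery deprives the lateral cortex and the striatum of oxygen and glucose, and neurons there depolarise and lose ion balance and protein synthesis. When blood returns, surviving cells face oxidants, misfolded proteins and waves of depolarisation that sweep across the same hemisphere. The first genes to answer are those transcribed without new protein synthesis, among them the factors of the Fos, Jun, Egr and Nr4a families. Heat shock factor 1 switches on the chaperones that refold damaged proteins, and the integrated stress response works through the factor Atf4. Inflammatory genes under NF-kappaB follow in microglia, astrocytes and vessels, and blood leukocytes enter the tissue later. The opposite hemisphere is often used as an internal control, although surgery and the injury act on the whole animal.

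The 6 libraries held 37935348 to 46624977 counts each. Mitochondrial ribosomal RNA took 27.8% to 30.6% of the counts in ipsilateral and 26.6% to 30.5% in contralateral libraries. The first principal component of the 6 libraries took 46.0% of the variance, with ipsilateral libraries at 23.7 to 45.7 and contralateral libraries at -40.2 to -24.6. Levels are given in CPM, counts scaled to library size by the trimmed mean of M-values, and compare libraries but not genes of different length. Slc17a7, the vesicular glutamate transporter of cortical excitatory neurons, stood at 750, 697 and 807 CPM in ipsilateral cortex. In contralateral cortex it stood at 988, 940 and 1028 CPM, so all 6 libraries carried transcripts of excitatory neurons. Tissue next to the cortex was carried along unevenly. The choroid plexus markers summed to 355, 14.1 and 15.3 CPM in ipsilateral libraries 1 to 3, and to 431, 9.16 and 6.95 CPM in contralateral libraries 1 to 3, so replicate 1 was high on both sides. Striatal markers summed to 241, 215 and 400 CPM in ipsilateral and 315, 542 and 258 CPM in contralateral libraries, and the sides overlapped. None of these markers was called, and their part in other results was not tested.

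Cortex on the side of the stroke differed from the opposite cortex mainly by higher transcripts. Of 18087 genes tested, 1058 rose (5.85%) and 387 fell (2.14%) at an adjusted p below 0.05, in edgeR's quasi-likelihood test with Benjamini-Hochberg adjustment. Changes of at least 2-fold were 405 rises (2.24%) and 25 falls (0.138%). The median fold of the rises was 1.8 and that of the falls was 1.42-fold lower, while the median log2 fold change of all tested genes was -0.02 and their 5th to 95th percentiles ran from -0.57 to 1.03. The counts depended on single libraries. They were 735 rises and 177 falls without contralateral replicate 1, 617 and 206 without contralateral replicate 2, 636 and 120 without contralateral replicate 3, and 658 and 153 without ipsilateral replicate 1. Without ipsilateral replicate 2 they were 465 and 51, and without ipsilateral replicate 3 they were 1157 and 486. Under every such omission 397 rises and 41 falls kept their call. Genes given below as higher or lower at 6 h are in that stable set unless a library or a missed threshold is named beside them. An additive surgery-day block, shared by all groups, gave 1146 rises and 533 falls. A surgery-day block for each time gave 1287 rises and 691 falls. Against sham cortex, ipsilateral cortex rose in 909 genes (5.03%) and fell in 197 (1.09%), 1106 in all. That total was 639 without ipsilateral replicate 1, 423 without ipsilateral replicate 2, and 553, 527 and 602 without sham replicates 1, 2 and 3. Of the 1058 rises between the sides, 635 were also called over sham and 1055 had the same sign. The ipsilateral libraries enter both comparisons. Bulk tissue gives one level for all cells, so fewer cells of a type and less RNA per cell cannot be told apart.

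**Figure D1:**
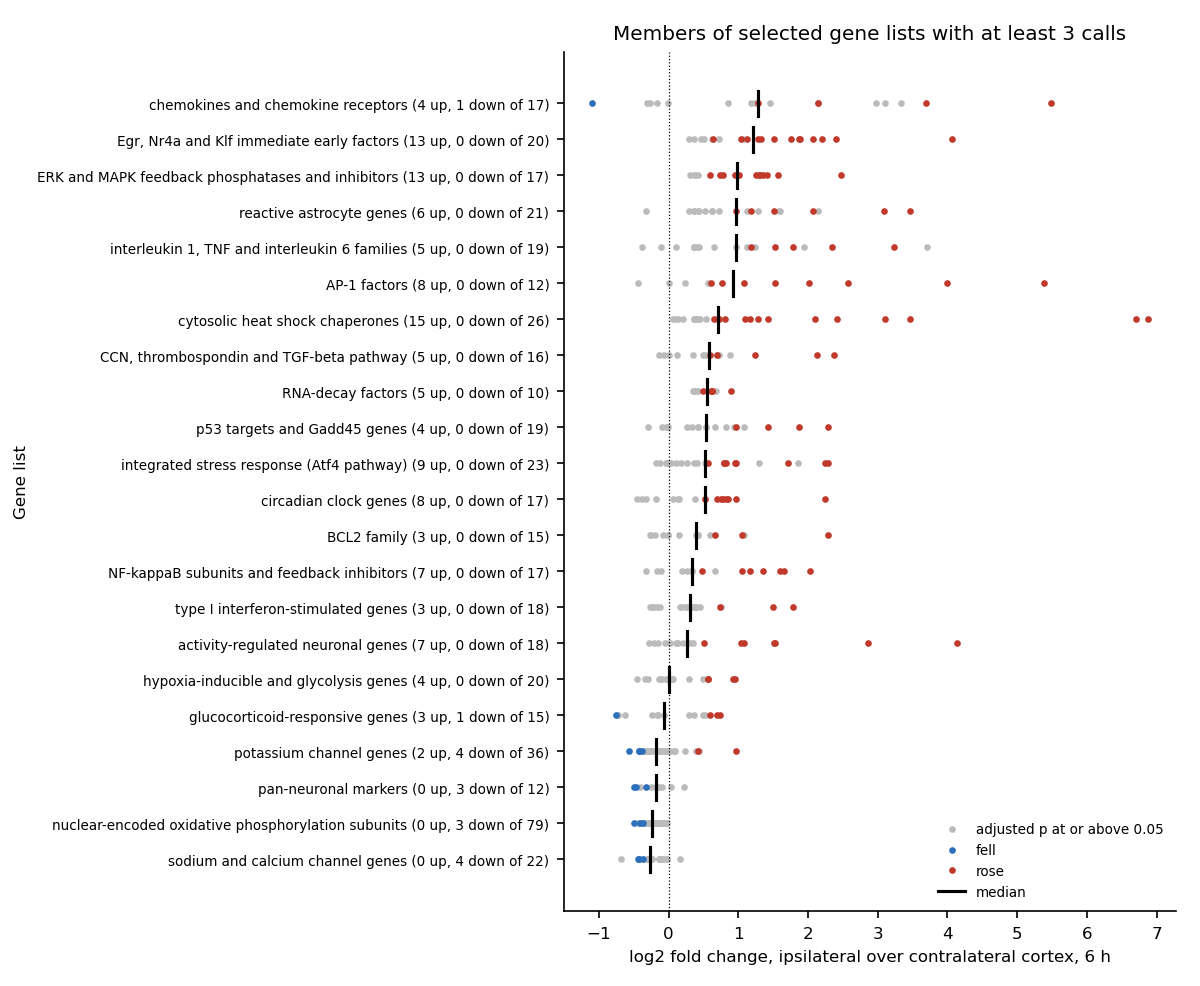
Log2 fold change, ipsilateral over contralateral cortex at 6 h, for the tested members of 22 gene groups. The groups were picked from 57 for their number of tested members and of calls, so groups with few calls are not shown. The small GTPase group was among those left out despite its calls. Each point is 1 gene, red points rose and blue points fell at an adjusted p below 0.05, grey points did not pass, the vertical bar is the group's median and the dotted line is no change. Members of the ERK and chaperone groups lie mostly to the right, with medians of 0.98 and 0.71, and the respiratory chain group lies just left of the line with a median of -0.23.

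Chaperone genes of the cytosol and mitochondria rose strongly in ipsilateral cortex. Of 26 heat shock chaperones and co-chaperones tested, 15 rose, against 5.85% of all genes, and none fell. Their median log2 fold change was 0.71, against -0.02 for all genes. Summed over the group, chaperone transcripts stood at 7284, 7703 and 5640 CPM in ipsilateral cortex, against 3446, 3519 and 3221 CPM in contralateral cortex and 3546 to 4023 CPM in sham cortex. All 3 ipsilateral sums lay above every other, and ipsilateral replicate 3 was the lowest of them.

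Hspa1a and Hspa1b encode the inducible Hsp70 and lie side by side on mouse chromosome 17, Hspa1a at 34969359 to 34972156 of the mm10 build. Their reads cannot be assigned with certainty because the copies are near-identical, so their summed level is the safer measure. That sum was 1162, 1244 and 888 CPM in ipsilateral cortex, against 10.3, 10.1 and 8.94 CPM in contralateral cortex and 9.47, 12.1 and 7.58 CPM in sham cortex. The mean sums, 1098 ± 186 CPM in ipsilateral and 9.77 ± 0.73 CPM in contralateral cortex (SD, n = 3 each), stood in a ratio of 112. Hspb1, the small chaperone Hsp27 of stressed astrocytes and vessels, stood at 21.6, 23.9 and 13.8 CPM in ipsilateral cortex and 2.29, 1.21 and 1.83 CPM in contralateral cortex, 11.1-fold higher (log2 fold change 3.47 ± 0.30 SE, adjusted p = 4.8e-08). The co-chaperones that work with Hsp70 moved with it. Dnajb1, which delivers substrates and activates Hsp70, averaged 268 ± 60.5 CPM in ipsilateral and 31.3 ± 4.11 CPM in contralateral cortex (log2 fold change 3.10 ± 0.25, adjusted p = 7.17e-08). Hsph1, its nucleotide exchange factor, averaged 803 ± 165 CPM in ipsilateral and 151 ± 8.63 CPM in contralateral cortex (2.42 ± 0.22, adjusted p = 1.41e-07). Bag3, which steers damaged proteins to autophagy, stood at 10.5, 12.8 and 10.4 CPM in ipsilateral and 2.81, 2.63 and 2.39 CPM in contralateral cortex, 4.29-fold higher.

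Other members of the group had smaller folds. Dnaja1, another Hsp40, was 2.44-fold higher, with 251, 238 and 168 CPM in ipsilateral and 93.5, 94.3 and 81.6 CPM in contralateral cortex. The mitochondrial pair Hspd1 and Hspe1, which form the Hsp60 folding chamber and its lid, were 2.25-fold and 2.68-fold higher. Their genes are divergent neighbours on chromosome 1 whose exons overlap by up to 112 bases on opposite strands, and the strand setting of the counting is unknown, so some of their reads cannot be told apart. The constitutive Hsc70 gene Hspa8 stood at 1942, 1969 and 1473 CPM in ipsilateral and 1195, 1141 and 1088 CPM in contralateral cortex, 1.57-fold higher (adjusted p = 0.00559, and 0.0538 without ipsilateral replicate 2). The strongly raised chaperones stood near their sham levels in contralateral cortex. For Hspb1 the log2 fold change over sham was 3.60 in ipsilateral cortex and 0.12 in contralateral cortex, and for Dnajb1 it was 2.96 in ipsilateral and -0.14 in contralateral cortex.

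**Figure D2:**
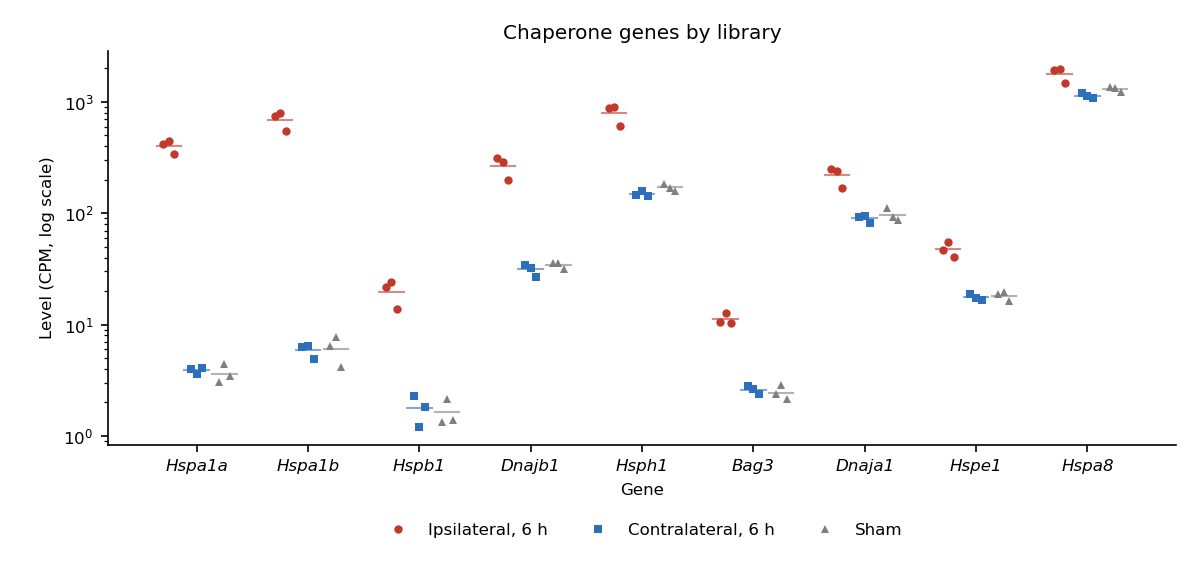
CPM on a log axis of 9 chaperone genes in each 6 h and sham library. Points are libraries and horizontal lines are group means, for ipsilateral, contralateral and sham cortex from left to right. Ipsilateral points stand above the contralateral and sham points for every gene, by 104-fold for Hspa1a and 1.57-fold for Hspa8.

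Heat shock factor 1 binds arrays of inverted GAA units, and the 250 bases before and 50 after the start sites of the strongly raised chaperones are shown here because such a unit can be read in them. The sequences are those of RefSeq on the GRCm38.p6 assembly, given 5′ to 3′ on the strand of the gene, with matches to GAANNTTC, a palindrome and therefore the same on both strands, in capitals. The Hspa1a window is chr17:34972107-34972406 on the minus strand, with 1 match that starts 104 bases before the start site. The Hspb1 window is chr5:135887669-135887968 on the plus strand, with 2 matches 117 and 97 bases before the start. The Bag3 window is chr7:128523333-128523632 on the plus strand, with 1 match 43 bases after the start.
Hspa1a: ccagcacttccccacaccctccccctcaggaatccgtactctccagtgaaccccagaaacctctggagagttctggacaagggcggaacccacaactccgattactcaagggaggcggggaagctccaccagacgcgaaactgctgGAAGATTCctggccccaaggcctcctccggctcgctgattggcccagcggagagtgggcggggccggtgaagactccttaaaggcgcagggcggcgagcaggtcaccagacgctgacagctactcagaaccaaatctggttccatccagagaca
Hspb1: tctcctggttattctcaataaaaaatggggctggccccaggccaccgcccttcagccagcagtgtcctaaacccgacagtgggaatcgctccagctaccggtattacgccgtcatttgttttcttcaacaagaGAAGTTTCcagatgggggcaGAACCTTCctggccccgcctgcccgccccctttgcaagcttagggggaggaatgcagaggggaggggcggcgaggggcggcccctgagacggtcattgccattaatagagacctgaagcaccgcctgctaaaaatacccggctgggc
Bag3: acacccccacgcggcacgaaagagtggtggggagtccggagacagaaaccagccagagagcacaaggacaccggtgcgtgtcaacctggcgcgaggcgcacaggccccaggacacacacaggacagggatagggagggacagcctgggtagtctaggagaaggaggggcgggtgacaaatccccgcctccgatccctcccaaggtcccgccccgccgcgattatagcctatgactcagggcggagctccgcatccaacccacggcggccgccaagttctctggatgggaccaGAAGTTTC
The Hspa1b window was identical to that of Hspa1a at 296 of 300 positions, and it held the match at the same place. Neither of the 2 Dnajb1 windows held a match, although Dnajb1 was 8.57-fold higher in ipsilateral cortex. A match was present in 7.86% of all 32851 promoter windows in the table, in 7.16% of the windows of genes that rose at least 2-fold and in 6.08% of the windows of tested genes.

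A second large group was the negative feedback on growth factor and calcium signalling. ERK is the kinase at the end of the Ras pathway, and its own targets include the phosphatases and adaptors that switch it off. Of 17 such feedback genes tested, 13 rose, against 5.85% of all genes, and none fell, with a median log2 fold change of 0.98. Dusp6, the cytosolic ERK phosphatase, stood at 140, 127 and 91 CPM in ipsilateral cortex, 41.5, 41.2 and 38.4 CPM in contralateral cortex and 91.1, 69.8 and 81.0 CPM in sham cortex. Spry4, a Sprouty adaptor that blocks Ras activation, stood at 20.8, 25.2 and 20.4 CPM in ipsilateral cortex, 8.76, 8.62 and 8.76 CPM in contralateral cortex and 16.5, 15.2 and 17.5 CPM in sham cortex. Contralateral libraries were the lowest of the 3 groups for both genes, and ipsilateral libraries were 2.96-fold and 2.54-fold above them (adjusted p = 1.74e-06 and 1.72e-07). Spry2 was 1.95-fold higher in ipsilateral than contralateral cortex and Dusp1, a nuclear phosphatase of p38, JNK and ERK, was 2.48-fold higher. Errfi1, the inhibitor of the EGF receptor, followed another pattern. Its 57.6, 60.0 and 44.1 CPM in ipsilateral cortex stood above 32.5, 34.9 and 29.4 CPM in contralateral cortex and 35.8, 32.3 and 28.1 CPM in sham cortex, which lay together. Spred1, a further inhibitor of Ras, differed by a log2 fold change of 0.42 ± 0.14 that missed the threshold (adjusted p = 0.0648, and 0.0091 without ipsilateral replicate 3).

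Small GTPases that restrain calcium channels or loosen the actin skeleton, Rrad, Gem and Rnd3, rose as well. Rrad, which blocks voltage-gated calcium channels, stood at 7.58, 8.14 and 7.74 CPM in ipsilateral cortex and 0.84, 0.699 and 0.713 CPM in contralateral cortex. Gem, its relative, stood at 9.45, 9.35 and 4.94 CPM in ipsilateral cortex and 1.16, 1.03 and 0.891 CPM in contralateral cortex. For both genes the contralateral levels lay in or near the sham ranges of 0.637 to 0.933 CPM for Rrad and 0.846 to 1.11 CPM for Gem. Rnd3, which loosens actin stress fibres, stood at 20.9, 21.1 and 12.3 CPM in ipsilateral, 4.63, 3.8 and 4.58 CPM in contralateral and 8.18, 9.33 and 8.84 CPM in sham cortex, with no overlap between any pair of groups. Among 16 regulators of G protein signalling 2 rose, against 5.85% of all genes, with a median log2 fold change of 0.12. They were Rgs16, by 3.26-fold, and Rgs2, by 2.06-fold, and 4 rose in the fit with a surgery-day block for each time.

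Arc and Egr1, read-outs of synaptic activity in cortical neurons, stood far below sham in contralateral cortex. Arc stood at 395, 489 and 292 CPM in ipsilateral cortex, 42.4, 67.6 and 52.1 CPM in contralateral cortex and 273, 190 and 236 CPM in sham cortex. Egr1 stood at 170, 153 and 158 CPM in ipsilateral cortex, 24.7, 33.7 and 33.1 CPM in contralateral cortex and 122, 77.3 and 91.8 CPM in sham cortex. The 7.26-fold difference of Arc between the sides (log2 fold change 2.86 ± 0.37) stood beside log2 fold changes over sham of 0.75 in ipsilateral cortex (adjusted p = 0.228) and -2.11 in contralateral cortex (adjusted p = 0.0414). For Egr1 the corresponding values over sham were 0.73 in ipsilateral cortex (adjusted p = 0.0988) and -1.67 in contralateral cortex (adjusted p = 0.0225), beside 2.40 ± 0.27 between the sides. These comparisons share libraries and are not independent. Against sham, 6 genes fell in contralateral cortex (0.0332% of those tested) and none rose. They were Arc, Egr1, Dusp6, Spry4, Rnd3 and the transcript 1700016P03Rik. That count was small and rested on each library. It was 0 without contralateral replicate 2 or sham replicate 3, 1 without contralateral replicate 1, contralateral replicate 3 or sham replicate 1, and 3 without sham replicate 2. DESeq2 called 22 genes in the same comparison, and 778 genes had an unadjusted p below 0.05. Over 18 synaptic activity genes 7 rose in ipsilateral over contralateral cortex, against 5.85% of all genes, with a median of 0.26. Bdnf, the activity-dependent growth factor, was 2.11-fold higher, and Nptx2, a secreted pentraxin that gathers AMPA receptors, was 2.89-fold higher.

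**Figure D3:**
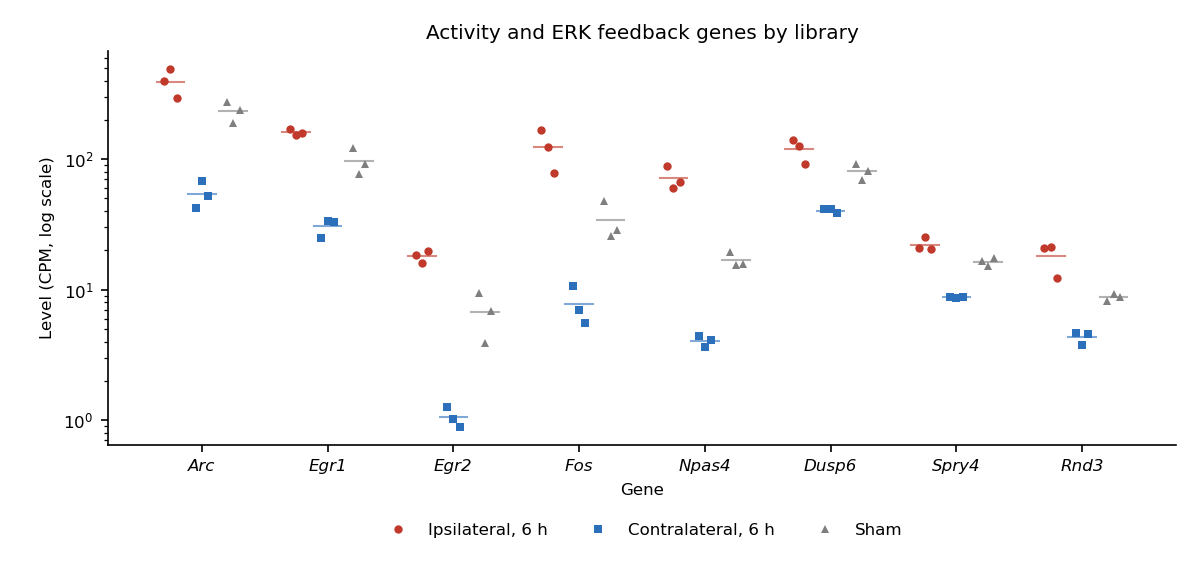
CPM on a log axis of 8 activity-dependent and ERK feedback genes in each 6 h and sham library. Points are libraries and horizontal lines are group means, for ipsilateral, contralateral and sham cortex from left to right. Contralateral points lie below the sham points for Arc, Egr1, Dusp6, Spry4 and Rnd3, while ipsilateral points lie above the contralateral ones for all 8 genes.

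Serum response factor binds the CArG box, and the windows of Egr2, a zinc finger factor induced with Arc, and of Rnd3 are shown because a copy can be read in each of them. Both are RefSeq sequences on GRCm38.p6, 5′ to 3′ on the strand of the gene, with the CArG box in capitals. For Egr2 the window is chr10:67537316-67537615 on the plus strand, 1 of its 5 windows in the table, of which 4 held a match, and the box starts 72 bases before the start site. For Rnd3 it is chr2:51149062-51149361 on the minus strand, and the box starts 100 bases before the start site.
Egr2: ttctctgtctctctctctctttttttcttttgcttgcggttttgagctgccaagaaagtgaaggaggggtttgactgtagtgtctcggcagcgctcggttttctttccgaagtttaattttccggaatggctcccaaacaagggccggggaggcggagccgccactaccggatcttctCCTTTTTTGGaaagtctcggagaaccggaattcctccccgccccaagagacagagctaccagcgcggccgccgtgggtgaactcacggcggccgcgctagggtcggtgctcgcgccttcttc
Rnd3: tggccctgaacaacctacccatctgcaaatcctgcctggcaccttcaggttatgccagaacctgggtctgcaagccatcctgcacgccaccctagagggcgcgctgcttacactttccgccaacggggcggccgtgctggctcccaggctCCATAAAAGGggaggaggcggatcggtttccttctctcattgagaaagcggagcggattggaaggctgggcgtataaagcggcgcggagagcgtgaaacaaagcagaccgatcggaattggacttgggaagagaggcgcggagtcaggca
The box, searched on both strands, was present in 1.63% of all promoter windows, 2.58% of the windows of genes that rose at least 2-fold and 1.39% of the windows of tested genes.

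Many immediate early transcription factors rose. Of 12 AP-1 factors tested, 8 rose, against 5.85% of all genes, with a median of 0.93, and 5 rose without contralateral replicate 3. Summed over the group, they stood at 594, 536 and 377 CPM in ipsilateral and 161, 144 and 132 CPM in contralateral cortex. Their sham sums of 188 to 264 CPM lay above every contralateral sum. Jun, a partner of Fos in AP-1, stood at 146, 131 and 87.7 CPM in ipsilateral cortex and 18.2, 21.2 and 21.7 CPM in contralateral cortex (log2 fold change 2.58 ± 0.27, adjusted p = 3e-06). Its sham levels of 20.3 to 23.5 CPM lay with the contralateral ones. Junb, by contrast, stood at 76.3, 71.4 and 51.8 CPM in ipsilateral, 27.8, 25.2 and 16 CPM in contralateral and 72.9, 44.8 and 40.6 CPM in sham cortex, and its call was lost without contralateral replicate 3 (adjusted p = 0.0527). Of 20 Egr, Nr4a, Klf and related early genes, 13 rose and none fell, with a median of 1.20. Their sums were 828, 808 and 676 CPM in ipsilateral and 280, 299 and 278 CPM in contralateral cortex. The sham sums of 422 to 573 CPM lay between the sides. The folds that follow are between the sides and are not rises over sham. Klf10, a repressor induced by TGF-beta, was 4.21-fold higher, with 72.8, 84.2 and 52.1 CPM in ipsilateral cortex and 15.9, 18.7 and 15.0 CPM in contralateral cortex. Klf6 was 2.52-fold, Csrnp1 3.65-fold, Ier2 4.59-fold and Btg2, an antiproliferative cofactor of deadenylation, 3.72-fold higher. Sik1, the cyclic AMP-induced kinase that restrains CREB coactivators, was 2.17-fold higher.

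Other genes with the smallest p values belonged to no group above. Nedd9, a scaffold of focal adhesions, stood at 33.6, 32.3 and 20.7 CPM in ipsilateral cortex and 12.0, 10.4 and 10.4 CPM in contralateral cortex (log2 fold change 1.4 ± 0.14, adjusted p = 2.14e-07). Phf13, a chromatin reader of histone methylation, was 3.53-fold higher and Lipg, the endothelial lipase, was 3.23-fold higher. In these, as in the chaperones named above and Atf3, ipsilateral replicate 3 was the lowest of its group. Ttll13, a member of the tubulin polyglutamylase family, ran the other way among the ipsilateral libraries, with 10.4, 12.3 and 15.9 CPM in ipsilateral cortex and 1.32, 1.05 and 0.891 CPM in contralateral cortex. Gm15124, a predicted gene with no described role, stood at 8.33, 8.35 and 11 CPM in ipsilateral cortex and 0.0908, 0.0466 and 0.255 CPM in contralateral cortex, 1187 against 16 counts in all.

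Proteins that destabilise messenger RNAs form a second layer of control over these short-lived transcripts. Of 10 such genes 5 rose, against 5.85% of all genes, and 3 rose without contralateral replicate 3 or without ipsilateral replicate 1. Zc3h12c, an RNase of the regnase family, was 1.87-fold higher, with 39.6, 37.8 and 26.8 CPM in ipsilateral cortex and 19.2, 19.9 and 16.7 CPM in contralateral cortex. Tob1, which recruits the deadenylase complex, was 1.52-fold higher. Zfp36, the tristetraprolin that binds AU-rich elements, had a log2 fold change of 0.68 ± 0.37 that missed the threshold (adjusted p = 0.287). Ago4, an Argonaute that carries microRNAs, was the single gene to rise among 14 Argonaute and microRNA pathway genes, with 17.1, 18.2 and 13.1 CPM in ipsilateral and 8.28, 8.18 and 9.55 CPM in contralateral cortex.

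Among 17 circadian clock genes 8 rose, against 5.85% of all genes, and none fell. Their median was 0.52, and 4 rose without ipsilateral replicate 2. Nfil3, a repressor of the clock's D-box output, had the greatest fold of those named here, with 28.0, 27.1 and 18.2 CPM in ipsilateral cortex and 6.63, 4.82 and 3.95 CPM in contralateral cortex (log2 fold change 2.25 ± 0.25, adjusted p = 1.74e-06). Genes of opposite phase moved the same way. Per2, a repressor of the clock, was 1.96-fold higher and Arntl, the activator Bmal1 that it represses, was 1.76-fold higher. Bhlhe41, which also represses the activator, was 1.81-fold higher.

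The integrated stress response held more calls than the chaperones of the endoplasmic reticulum. Of 23 genes of the response 9 rose, against 5.85% of all genes, with a median of 0.52, and 4 rose without ipsilateral replicate 2. Chac1, which degrades glutathione and is a direct target of Atf4, stood at 16.6, 25.1 and 15.5 CPM in ipsilateral cortex and 3.81, 4.87 and 2.95 CPM in contralateral cortex, 4.90-fold higher. Ppp1r15a, the Gadd34 subunit that restores translation, was 3.30-fold higher, and Stc2, a stanniocalcin induced by Atf4, was 4.75-fold higher. Atf4 itself averaged 86.6 ± 14.7 CPM in ipsilateral and 49.0 ± 5.17 CPM in contralateral cortex (log2 fold change 0.82 ± 0.16, adjusted p = 0.0017). Its sham mean of 60.3 ± 6.06 CPM lay between them. Over sham its log2 fold change was 0.52 ± 0.16 in ipsilateral cortex, which missed the threshold (adjusted p = 0.0534), and -0.3 in contralateral cortex. Among 20 endoplasmic reticulum chaperones and their regulators 2 rose, against the same 5.85% of all genes, with a median of 0.04. The count was 1 without contralateral replicate 2, contralateral replicate 3 or ipsilateral replicate 1, and 0 without ipsilateral replicate 2. Hspa5, the reticulum's Hsp70, stood at 395, 439 and 255 CPM in ipsilateral and 262, 183 and 189 CPM in contralateral cortex, and the sides overlapped. Its call (adjusted p = 0.0215) was lost without contralateral replicate 2 (0.105), contralateral replicate 3 (0.104), ipsilateral replicate 1 (0.0857) or ipsilateral replicate 2 (0.154). Xbp1 was 1.50-fold higher, a call lost without ipsilateral replicate 2 (adjusted p = 0.0506).

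Atf3 is a target of both Atf4 and Jun, and its promoter is shown because it holds the Atf4 response core. Atf3 transcripts stood at 29.6, 30.7 and 15.6 CPM in ipsilateral cortex, against 0.749, 0.536 and 0.509 CPM in contralateral cortex. The window is chr1:191183284-191183583 on the minus strand of GRCm38.p6, from RefSeq, 5′ to 3′ on the strand of the gene. Its match to TGATGCAA lies on the opposite strand and is printed in capitals as its reverse complement, 110 bases before the start site.
Atf3: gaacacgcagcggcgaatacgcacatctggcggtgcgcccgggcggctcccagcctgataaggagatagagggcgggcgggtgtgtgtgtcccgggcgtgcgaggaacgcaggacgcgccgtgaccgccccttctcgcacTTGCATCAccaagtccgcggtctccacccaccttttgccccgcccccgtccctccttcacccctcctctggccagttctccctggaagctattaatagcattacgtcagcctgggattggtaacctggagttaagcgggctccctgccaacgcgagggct
On either strand the core was present in 0.895% of all windows, 2.29% of the windows of genes that rose at least 2-fold and 0.653% of the windows of tested genes.

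Of 17 oxidative stress genes under Nrf2 tested 2 rose, against 5.85% of all genes, with a median of 0.13. Hmox1, the haem oxygenase that heat shock and haem also induce, stood at 21.1, 24.1 and 16.4 CPM in ipsilateral cortex and 3.49, 2.49 and 3.03 CPM in contralateral cortex, 6.83-fold higher. Txnrd1, a thioredoxin reductase, was 1.73-fold higher. In the p53 group 4 of 19 rose, with a median of 0.54. Plk3 was 2.68-fold and the growth arrest gene Gadd45b 4.90-fold higher, and Gadd45g was 3.66-fold higher. Of 15 BCL2 family genes 3 rose, on both sides of the death decision. Mcl1, which protects mitochondria, stood at 97.4, 107 and 82.5 CPM in ipsilateral and 60.7, 60.7 and 59.9 CPM in contralateral cortex. Bcl2l11, the killer Bim, stood at 11.6, 9.27 and 8.54 CPM in ipsilateral and 5.72, 4.15 and 4.18 CPM in contralateral cortex, 2.09-fold higher. Hypoxia genes had a median of 0.00, and 4 of 20 rose, with 2 of 20 without contralateral replicate 2 and 1 of 20 without ipsilateral replicate 2. P4ha1, the prolyl hydroxylase of collagen, was the stable one, with 63.5, 71.2 and 48.8 CPM in ipsilateral cortex and 30.1, 30.6 and 35.3 CPM in contralateral cortex.

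Among the inflammatory groups, the subunits and inhibitors of NF-kappaB held the most calls that no single library decided. Of 17 NF-kappaB subunits and inhibitors 7 rose, against 5.85% of all genes, with a median of 0.34. Nfkbiz, a nuclear IkappaB that steers NF-kappaB to secondary genes, stood at 20.8, 23.8 and 16.8 CPM in ipsilateral cortex and 6.08, 7.18 and 6.34 CPM in contralateral cortex (log2 fold change 1.65 ± 0.18, adjusted p = 1.34e-06). Nfkbid, another nuclear IkappaB, was 4.1-fold higher. Tnfaip3, the A20 enzyme that ends TNF signalling, was 2.56-fold higher, and the subunit gene Relb was 2.08-fold higher. Cytokine genes themselves gave few reads. Tnf had 62 counts over the 3 ipsilateral libraries and 6 over the contralateral ones, at 0.436, 0.261 and 0.717 CPM in ipsilateral cortex and 0, 0.0932 and 0.0509 CPM in contralateral cortex (adjusted p = 0.00451). Of 19 genes of the interleukin 1, TNF and interleukin 6 families 5 rose, and 3 rose without contralateral replicate 2 or 3 or without ipsilateral replicate 1 or 2. Tnfrsf12a, the receptor of the TNF relative TWEAK, gave more reads, with 9.69, 11.9 and 10.2 CPM in ipsilateral cortex and 3.97, 2.45 and 2.78 CPM in contralateral cortex.

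Chemokines had a median log2 fold change of 1.28, but 4 of 17 rose and 1 fell, against 5.85% and 2.14% of all genes. The rises were 2, 1 and 2 without contralateral replicates 1, 2 and 3, and 2 without any of the ipsilateral replicates, while 7 rose in the fit with a surgery-day block for each time. Cxcl1, the attractant of neutrophils, stood at 2.54, 3.18 and 1.73 CPM in ipsilateral cortex and 0.182, 0.28 and 0.102 CPM in contralateral cortex, 12.9-fold higher. The fall was Ackr2, a decoy receptor that removes inflammatory chemokines, with 2.66, 2.51 and 3.97 CPM in ipsilateral cortex and 5.83, 6.11 and 7.71 CPM in contralateral cortex, 2.14-fold lower. Both anaphylatoxin receptors of microglia and myeloid cells rose, C3ar1 by 4.32-fold and C5ar1 by 3.94-fold, among 13 complement genes with a median of -0.10. Rsad2, the antiviral viperin, was 3.43-fold higher, 1 of 3 rises among 18 interferon-stimulated genes and the one kept without contralateral replicate 3. Markers of blood leukocytes were close to 0. The neutrophil and monocyte markers summed to 3.56, 3.58 and 4.09 CPM in ipsilateral cortex, 3.36, 2.98 and 3.28 CPM in contralateral cortex and 1.25 to 2.71 CPM in sham cortex, and the defining markers S100a8, S100a9, Retnlg, Ly6c2, Ccr2 and Cxcr2 each averaged under 1 CPM and were not called. Of 9 such markers tested 1 rose, Mpo, the peroxidase of neutrophil granules, with 52 counts in ipsilateral and 6 in contralateral cortex (adjusted p = 0.0116). That call was lost without contralateral replicate 1 (0.0674) or ipsilateral replicate 3 (0.0538). Cxcr2 had 16 counts in ipsilateral and 2 in contralateral cortex, with no overlap (adjusted p = 0.234). The part of these cells in other results was not tested.

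Groups of astrocytes, vessels and matrix are read beside the 5.85% of all genes that rose. Of 21 reactive astrocyte genes 6 rose, with a median of 0.97, while 2 rose without contralateral replicate 2 and 3 without contralateral replicate 3, ipsilateral replicate 1 or ipsilateral replicate 2. Slc10a6, a steroid sulphate transporter used as a marker of astrocytes after inflammation or stroke, stood at 2.54, 5.85 and 2.02 CPM in ipsilateral cortex and 0.408, 0.443 and 0.356 CPM in contralateral cortex. Gfap, the filament protein by which reactive astrocytes are usually recognised, stood at 93.7, 153 and 138 CPM in ipsilateral and 113, 74.5 and 98.3 CPM in contralateral cortex, and the sides overlapped (adjusted p = 0.377). Sox9, an astrocyte fate factor counted with the homeostatic genes, was 1.92-fold higher. Among 16 CCN and TGF-beta genes 5 rose, and 2 without contralateral replicate 2 or 3 or ipsilateral replicate 1 or 2. Smad7, the inhibitor of TGF-beta receptors, stood at 37.5, 35.0 and 32.8 CPM in ipsilateral cortex and 12.9, 15.2 and 16.4 CPM in contralateral cortex. Cyr61, a matricellular protein of the CCN family, averaged 24.0 ± 5.80 CPM in ipsilateral and 4.62 ± 2.62 CPM in contralateral cortex, 5.17-fold higher. Of 44 collagen genes 1 rose, Col5a3, by 2.91-fold. Of 16 genes of endothelial activation 1 rose, and 0 did without contralateral replicate 2 or 3 or ipsilateral replicate 2 or 3, and of 17 blood-brain barrier and endothelial markers 2 rose, and 1 did without contralateral replicate 1 or 2 or ipsilateral replicate 1 or 2. Slc16a1, the lactate transporter of astrocytes and endothelium, was 1.71-fold higher, and Kcnj2, an inward rectifier potassium channel of vessels and neurons, was 1.95-fold higher.

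Most falls were under 2-fold. Dhrs7b, a short-chain dehydrogenase, stood at 12.9, 11.7 and 13.6 CPM in ipsilateral cortex and 23.2, 20.5 and 22.7 CPM in contralateral cortex, 1.74-fold lower (adjusted p = 9.61e-05). Cxx1c, an X-linked gene derived from a retrotransposon, was 2.01-fold lower (adjusted p = 0.000329). Genes of neurons also fell. Pcsk2, the prohormone convertase of dense-core vesicles, stood at 377, 328 and 326 CPM in ipsilateral cortex and 515, 470 and 511 CPM in contralateral cortex, 1.45-fold lower (log2 fold change -0.54 ± 0.09, adjusted p = 0.000352). Scg5, the 7B2 chaperone that Pcsk2 needs to mature, stood at 140, 127 and 136 CPM in ipsilateral cortex and 194, 182 and 193 CPM in contralateral cortex, 1.41-fold lower. The sham levels of 416 to 458 CPM for Pcsk2 and 176 to 179 CPM for Scg5 lay between the sides. Faah, the hydrolase of the endocannabinoid anandamide, was 1.49-fold lower, with 64.2, 62.0 and 68.6 CPM in ipsilateral cortex and 103, 87.3 and 101 CPM in contralateral cortex. Lamp5, a vesicle protein of a class of cortical interneurons and of upper-layer neurons, was 1.69-fold lower, with 58.2, 48.9 and 57.2 CPM in ipsilateral and 101, 82.4 and 95.3 CPM in contralateral cortex. Kcnq3, a subunit of the M current that damps firing, stood at 87.3, 83.1 and 85.1 CPM in ipsilateral and 114, 115 and 115 CPM in contralateral cortex, 1.35-fold lower. Among genes of general metabolism Ephx1, the microsomal epoxide hydrolase, was 1.77-fold lower, and Pomk, a kinase of dystroglycan glycosylation, was 1.52-fold lower.

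**Figure D4:**
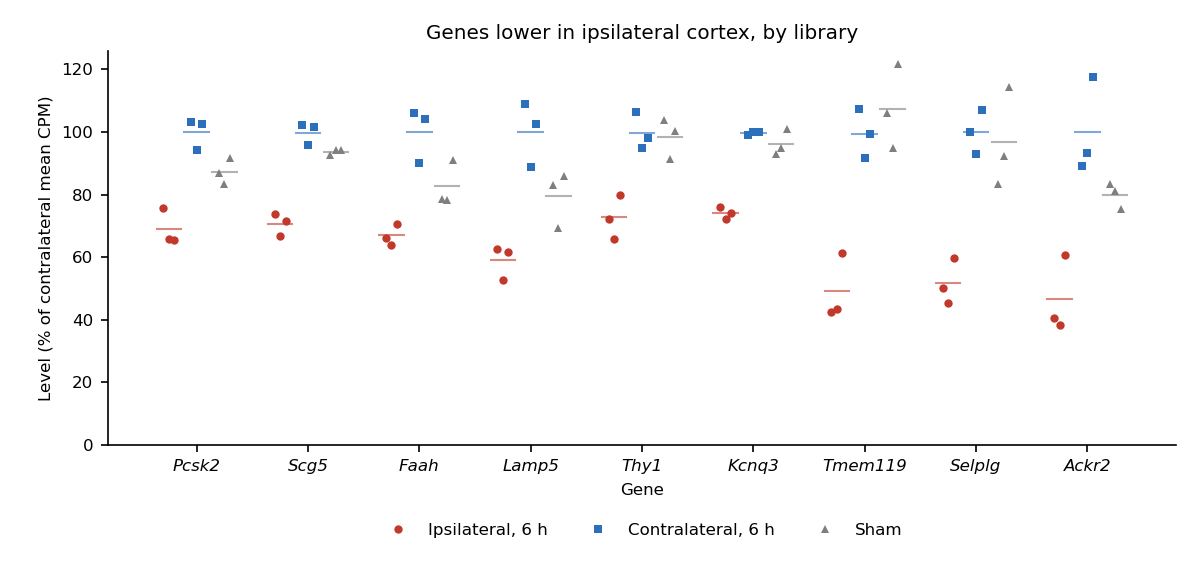
Level of 9 genes that fell, as a percentage of the gene's mean CPM in the 3 contralateral libraries at 6 h, on a linear axis from 0. Points are libraries and horizontal lines are group means, for ipsilateral, contralateral and sham cortex from left to right. All ipsilateral points lie below all contralateral points, by 1.35-fold for Kcnq3 and 2.14-fold for Ackr2 in the fitted folds. Some of these genes were picked among genes whose sides do not overlap, so for them that feature was fixed by the choice.

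The falls in neuronal groups, read beside the 2.14% of all genes that fell, depended on single libraries. Of 12 pan-neuronal markers 3 fell, with a median of -0.18, and none without ipsilateral replicate 2. Thy1, a surface protein of projection neurons, stood at 193, 176 and 213 CPM in ipsilateral and 284, 253 and 262 CPM in contralateral cortex, and its call was lost without that library (adjusted p = 0.0573). Sodium and calcium channel genes had a median of -0.27, and 4 of 22 fell, with 2 without any contralateral replicate and 0 without ipsilateral replicate 2. Potassium channel genes had a median of -0.18, with 2 rises and 4 falls among 36, and 1 fall without contralateral replicate 1 or ipsilateral replicate 2 and 2 falls without any other single library. The single rise that every omission kept was Kcnj2. AMPA and NMDA receptor genes had a median of -0.27, and 2 of 15 fell, with 1 without any contralateral replicate or ipsilateral replicate 3 and 0 without ipsilateral replicate 2. Slc17a7 was 1.31-fold lower (adjusted p = 0.0295), a call lost without contralateral replicate 1 (0.0775), contralateral replicate 3 (0.118), ipsilateral replicate 1 (0.0794) or ipsilateral replicate 2 (0.166). All 79 nuclear genes of the respiratory chain had log2 fold changes below 0, between -0.02 at the highest and a median of -0.23, but 3 fell by the test. That count was 0 without contralateral replicate 1 or 2 or ipsilateral replicate 1 or 2, 1 without contralateral replicate 3, 9 without ipsilateral replicate 3 and 8 in the fit with a surgery-day block for each time.

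Among homeostatic genes of microglia, 2 of 17 fell, with a median of -0.22, and none without ipsilateral replicate 2. Tmem119, the surface marker of resident microglia, stood at 5.67, 5.82 and 8.21 CPM in ipsilateral cortex and 14.4, 12.3 and 13.3 CPM in contralateral cortex, 2.03-fold lower. Selplg, the P-selectin ligand of microglia and leukocytes, stood at 7.27, 6.55 and 8.67 CPM in ipsilateral cortex and 14.5, 13.5 and 15.5 CPM in contralateral cortex, 1.93-fold lower. Without ipsilateral replicate 2 their adjusted p values were 0.0553 and 0.0711. None of the genes that clear glutamate from the synapse passed the test, among 14 genes of glutamate uptake and metabolism of which Slc17a7 alone was called. Slc1a2, the main astrocyte transporter, stood at 2956, 2859 and 2539 CPM in ipsilateral cortex and 3217, 2405 and 3202 CPM in contralateral cortex (log2 fold change -0.08 ± 0.14, adjusted p = 0.786). Slc1a3 had a log2 fold change of -0.09 ± 0.14. Glul, the glutamine synthetase, stood at 994, 1076 and 1144 CPM in ipsilateral and 1320, 1276 and 1345 CPM in contralateral cortex. The sides did not overlap, and its log2 fold change of -0.29 ± 0.11 missed the threshold (adjusted p = 0.115, and 0.046 in a fit to the 6 h libraries alone).

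Few genes had an effect at 6 h that differed from that at 3 or 12 h by a test of the difference. The effect is the log2 fold change of ipsilateral over contralateral cortex at one time, and the difference of effects was tested in the same fit; the 6 h libraries enter both differences. Between 6 and 3 h no gene differed, with a smallest adjusted p of 0.0974 in edgeR, 1633 genes with an unadjusted p below 0.05 and 55 genes called by DESeq2. Without ipsilateral replicate 3 at 6 h the edgeR count was 35. Between 12 and 6 h 4 genes had the higher effect at 12 h and 4 the lower one (0.0221% each), with 1086 genes at an unadjusted p below 0.05, and DESeq2 called 30. Hmox1 had effects of 1.10, 2.77, 4.17 and 4.01 at 3, 6, 12 and 24 h. Egr1 had effects of 1.46, 2.40, 0.67 and -0.21, and Spry4 had 0.44, 1.35, 1.31 and 0.28. Pcsk2 had effects of -0.28, -0.54, -0.57 and -0.61. Rnd3 had the effect 0.71 at 3 h, which lay 1.34 ± 0.26 below that at 6 h (adjusted p = 0.0974). Adcy7, an adenylyl cyclase abundant in immune cells, differed between 12 and 6 h. Its effect at 12 h lay 1.23 ± 0.21 above that at 6 h (adjusted p = 0.0198), with means of 32.6 ± 5.92 CPM in ipsilateral and 10.3 ± 0.926 CPM in contralateral cortex at 12 h, beside 15.2 ± 1.65 CPM in ipsilateral and 11.4 ± 1.66 CPM in contralateral cortex at 6 h.

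**Figure D5:**
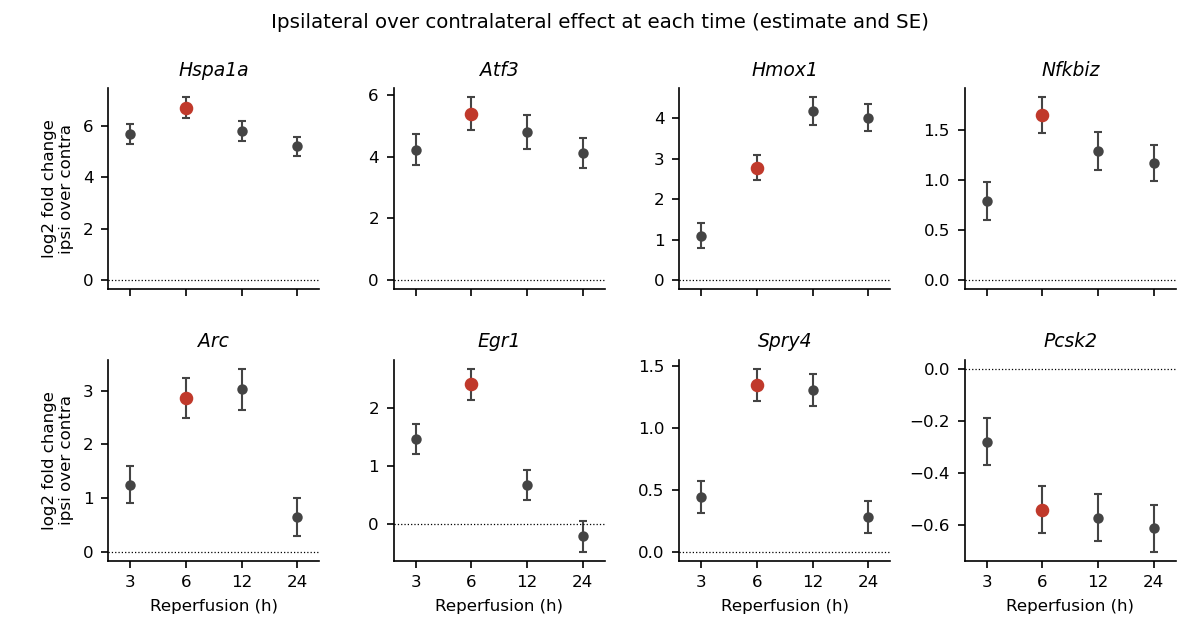
Log2 fold change, ipsilateral over contralateral cortex, at 3, 6, 12 and 24 h for 8 genes. Points are fitted effects, bars are standard errors and the points at 6 h are red. The effect of Hspa1a at 6 h is 6.70. Those of Arc and Egr1 at 6 h, 2.86 and 2.40, stand above their values at 24 h, a difference that was not tested.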

How the data were processed

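Total RNA from mouse cortex was depleted of ribosomal RNA (Ribo-Zero) and made into TruSeq libraries, per the labels' protocols. The authors deposited whole-number counts of reads per gene for all 27 libraries, 22340 genes in all. The submitters' processing notes name STAR 2.5.0a, the mm10 build, featureCounts 1.4.3-p1 and edgeR, and neither the strand setting nor the handling of reads that map to several places was found in those notes. In GENCODE vM21, 28 of the 114 genes named here share exon bases with another annotated gene, among them Dnaja1 with Smu1, Jun with Junos, Pcsk2 with Pcsk2os1, Bdnf with Gm45346 and Hspa8 with small nucleolar RNAs, and the split of such reads is uncertain.

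From the deposited counts, genes were kept by filterByExpr in edgeR 4.0.16 (minimum count 10, minimum total 15), which left 18087, with trimmed mean of M-values scaling and R 4.3.3. The quasi-likelihood test was fitted to all 27 libraries with 1 term for each group, none for the surgery day, and robust dispersions. P-values were adjusted by Benjamini-Hochberg over all 18087 genes with a threshold of 0.05. The fit was also run on simulated counts drawn from its own model and spread. These held no surgery-day or dissection effect, so that run cannot vouch for the uneven libraries seen here. CPM are counts over the effective library size. Fold changes carry standard errors and levels carry standard deviations over 3 libraries. Alternatives were DESeq2 1.42.0 and its size factors, other filters, abundant RNAs left out, a fit to the 6 h libraries alone, each library left out, and surgery-day blocks. The study's design text makes each replicate number a surgery day, so the numbers pair the samples, a pairing that only the surgery-day blocks used. The deviations of same-numbered ipsilateral and contralateral libraries correlated at 0.145, -0.0141 and 0.00456, against -0.0941 to 0.0862 for other pairs.

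The members, gene groups and tests were chosen with earlier results of these data known. Genes were named by rule: the 15 smallest p in each direction and the 8 largest CPM differences in each direction among called genes of at least 5 CPM whose sides do not overlap, up to 4 members of each group by smallest p, the 8 smallest p for differences between times, and Slc1a1, Slc1a2, Slc1a3, Glul, Hspa1a, Fos and Gfap. Further members of the groups were chosen after their values were seen. Promoter windows of 300 bases are from RefSeq on GRCm38.p6, matched by gene symbol. They covered 12403 of the 18087 tested genes and 277 of the 405 that rose at least 2-fold. A gene could have several windows, 15781 and 349 in all, so the percentages describe windows of the matched genes only.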

Additional observations from a re-analysis of the deposited data

Results flagged for a closer look

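For 8 genes the effect of ipsilateral over contralateral cortex at 12 h differed from that at 6 h. This was a direct test of the difference (edgeR, Benjamini-Hochberg adjusted p below 0.05), and a change on either side can produce it. The effect rose at 12 h relative to 6 h in Adcy7 by 1.23 ± 0.21 on the log2 scale (adjusted p = 0.0198), in Sapcd2 by 2.23 ± 0.42 (0.0418), in Shmt2, the mitochondrial serine hydroxymethyltransferase, by 1.3 ± 0.25 (0.0418) and in Trib3, a pseudokinase induced by Atf4, by 3.24 ± 0.64 (0.0494). For Trib3 the effects were 4.54 at 12 h and 1.3 at 6 h, with means of 3.53 ± 1.37 CPM in ipsilateral and 0.152 ± 0.066 CPM in contralateral cortex at 12 h, beside 1.10 ± 0.318 CPM in ipsilateral and 0.447 ± 0.112 CPM in contralateral cortex at 6 h. Shmt2 had effects of 1.11 at 12 h and -0.18 at 6 h. Lower effects at 12 h than at 6 h were found in Gm13716, with a difference of -1.48 ± 0.24 (0.0198), in the matrix protease Adamts15, with -1.52 ± 0.28 (0.0418), in the adenylyl cyclase Adcy8, with -1.14 ± 0.22 (0.0418), and in Samd3, with -2.16 ± 0.42 (0.0494). Adcy8 averaged 33.0 ± 3.66 CPM in ipsilateral and 54.5 ± 5.23 CPM in contralateral cortex at 12 h, against 41.0 ± 4.95 CPM in ipsilateral and 30.6 ± 5.21 CPM in contralateral cortex at 6 h, so the contralateral level moved the more. From 6 to 12 h, Samd3 means went from 1.95 to 1.18 CPM in ipsilateral and from 0.63 to 1.72 CPM in contralateral cortex. Those of Gm13716 went from 5.7 to 3.47 CPM in ipsilateral and from 3.64 to 6.16 CPM in contralateral cortex. Shmt2 moved mainly in ipsilateral cortex, from 10.3 to 21.1 CPM, beside 11.7 and 9.75 CPM in contralateral cortex. All 8 differences kept their direction when any 1 of the 12 libraries of these times was left out. Their calls were fragile: the number of such omissions that kept the call was 7 for Gm13716, 6 for Adcy7, 2 for Sapcd2 and Shmt2, and 1 for Adamts15, Adcy8, Samd3 and Trib3. With an additive surgery-day block the call of Trib3 was lost (adjusted p = 0.0764), as it was with a filter of at least 1 CPM (0.0564). That of Samd3 was lost with no filter (0.0532). No cause was tested.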

How the results depend on the processing

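The counts depended on which libraries and which estimate of the spread were used. Leaving out one 6 h library at a time gave 465 to 1157 rises and 51 to 486 falls. The fit to the 6 h libraries alone gave 1630 rises and 815 falls, and with a surgery-day block 1861 and 1126. A surgery-day block within each time gave 1287 rises and 691 falls, and an additive surgery-day block gave 1146 and 533. Sham carried no block in the first of these, since it would have used all its libraries. DESeq2 called 1287 rises and 546 falls, which held 1055 of the rises and all 387 falls. DESeq2 size factors gave 1076 and 358, no filter 976 and 321, a filter of at least 1 CPM 1084 and 391, and leaving out abundant RNAs 1069 and 386. The additive block ended the call of 13 rises and 3 falls, and the block within each time that of 29 rises and 10 falls. No gene named in the report lost its call between the sides at 6 h under either of these blocks. In the fit to the 6 h libraries alone 1 of 112 named genes lost its call, and with a surgery-day block there also 1. For the difference between 6 and 3 h, 13 genes were called with the block within each time, 55 by DESeq2, and 0 to 35 with a library left out. Between 12 and 6 h these counts were 19, 30 and 0 to 13, beside 8. Against sham, ipsilateral cortex differed in 1106 genes, and in 423 to 1216 with a library left out. Contralateral cortex differed from sham in 6 genes, in 22 by DESeq2 and in 0 to 3 with a library left out. With 3 libraries a side, genes of under 1 CPM, such as the cytokines and leukocyte markers, were measured by few counts. The sign of 4 uncalled genes turned when a library was left out: Ccr2 ranged from -0.92 to 0.28, Retnlg from -0.35 to 0.2, S100a9 from -0.01 to 0.29 and Slc1a3 from -0.22 to 0.04 on the log2 scale.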

Other observations

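Motifs and gene length were set beside the calls as descriptions. The AP-1 site TGANTCA, searched on both strands, was present in 9.17% of the promoter windows of genes that rose at least 2-fold and 5.61% of the windows of tested genes. The NF-kappaB site was present in 8.88% of the windows of genes that rose at least 2-fold and 5.27% of the windows of tested genes, and the cyclic AMP response element TGACGTCA in 4.01% and 2.67%. The median span of the genes on the genome was 15.8 kb for rises of at least 2-fold, 25.2 kb for all rises and 18.6 kb for falls, against 21.4 kb for all tested genes.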
